A study of Mus musculus with 2 samples.

Results

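The 9 genes described here are the muscle translation paralogs Rpl3l and Eef1a2, their ubiquitous counterparts Rpl3 and Eef1a1, the other elongation factor genes Eef1b2, Eef1d, Eef1g and Eef2, and the eEF2 kinase gene Eef2k. They were chosen by name, with earlier results of these data known, and all 9 had a row among the 34745 genes of the count table. Gastrocnemius, a calf muscle made mostly of fast fibres, was taken from C57BL/6 mice aged 8 weeks, and 2 libraries were made of its total RNA. There was 1 library of the genotype CIPC-scko, called scKO here, and 1 of CIPC-flox/flox, called flox/flox. By the title of the series, Cipc was deleted in satellite cells, which are muscle stem cells. scKO was therefore read as that deletion, and flox/flox as the control that carries the floxed gene. Cipc encodes a protein that binds the circadian regulator CLOCK. The title also names mdx, a dystrophin-deficient mouse, but the labels of these libraries name no dystrophin allele, no Cre driver, no inducing agent and no injury, and they do not say whether animals were pooled. With 1 library per genotype there is no replicate and no test. Every difference below compares these libraries, not the genotypes, and every interval is a 95% interval that covers counting error only.

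Elongation is the stage of translation in which the ribosome adds amino acids to a growing protein. eEF1A carries each charged tRNA to the ribosome, the eEF1B complex reloads eEF1A with GTP, and eEF2 moves the ribosome along the mRNA. RPL3 is a core protein of the large ribosomal subunit close to the peptidyl transferase centre. In adult skeletal muscle of mice, Rpl3l takes much of the place of Rpl3, and Eef1a2 much of the place of Eef1a1, while eEF2 kinase slows elongation by phosphorylating eEF2.

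The libraries held 13842100 counts (scKO) and 14727219 counts (flox/flox), with counts for 16155 genes in scKO and 16375 genes in flox/flox. Cipc itself had 111 counts in scKO and 658 counts in flox/flox, a log2 ratio of -2.51 (interval -2.82 to -2.22), so the libraries differed at the targeted gene in the direction of their labels. These are counts of whole muscle and do not show in which cells Cipc RNA was lower. Whether the Cipc difference was confined to satellite cells was not tested. All 6 skeletal myofibre markers were detected in both libraries, with a sum of 1560115 counts in scKO and 1757874 counts in flox/flox, and all 3 neuron markers (Rbfox3, Snap25, Syt1) were at 0 in at least 1 library. The summed log2 ratio was -0.12 for the myofibre markers, 0.21 for 6 endothelial markers, -0.21 for 6 fibro-adipogenic progenitor markers and -0.38 for 5 erythroid markers. The 5 satellite cell markers summed to 532 counts in scKO and 541 counts in flox/flox, of which Sdc4 gave 298 in scKO and 311 in flox/flox. Pax7, the defining transcription factor of satellite cells, had 39 counts in scKO and 69 counts in flox/flox (log2 ratio -0.76, interval -1.38 to -0.19), and the intervals of the other 4 markers included 0 (Pax7 and Sdc4 were named after their values were seen). In whole muscle, fewer cells of a type and less RNA per cell cannot be told apart, and the part that cell composition plays in the differences below was not tested.

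Both ubiquitous genes have close relatives elsewhere in the genome, and the separation of the paralogs by reads rests on the bases that differ. The coding sequences of each pair are therefore shown around their longest identical run. They were chosen by that run, not by likeness over the whole stretch. The stretches below are the longest runs of identical aligned coding bases within an exon, in capitals, with their neighbouring bases in lower case. They were read 5′ to 3′ from GENCODE M21 transcripts on GRCm38, and coding bases are counted from the A of the start codon. The Rpl3l stretch lies in a coding exon at chr17:24728418-24728509 on the plus strand and the Rpl3 stretch at chr15:80082390-80082481 on the minus strand, both at coding bases 105 to 196.
Rpl3l: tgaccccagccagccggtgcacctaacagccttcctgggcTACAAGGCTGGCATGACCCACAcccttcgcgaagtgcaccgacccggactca
Rpl3: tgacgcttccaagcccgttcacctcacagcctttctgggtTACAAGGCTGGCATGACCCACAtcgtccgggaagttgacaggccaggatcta
These 92 bases differ at 22 positions around a shared run of 22 bases. The Eef1a2 stretch lies at chr2:181152784-181152855 and the Eef1a1 stretch at chr9:78479852-78479923, both on the minus strand and at coding bases 550 to 621.
Eef1a2: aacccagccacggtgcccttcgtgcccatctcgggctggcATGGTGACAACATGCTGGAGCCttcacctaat
Eef1a1: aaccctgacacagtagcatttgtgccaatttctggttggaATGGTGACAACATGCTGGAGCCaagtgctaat
These 72 bases differ at 17 positions. Over the whole coding sequence, Rpl3l and Rpl3 were identical at 74.8% of aligned bases, and Eef1a2 and Eef1a1 at 80.6%. The longest stretch of transcript that the members of a pair had in common was 22 bases for Rpl3l and Rpl3, and 23 bases for Eef1a2 and Eef1a1. No 50-base word was therefore common to both members of a pair.

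Rpl3l (ENSMUSG00000002500, GRCm38 chr17:24727820-24736143, plus strand) encodes the form of RPL3 found in heart and skeletal muscle, and it was the predominant member of its pair in both libraries. Rpl3l had 5669 counts (241.1 FPKM) in scKO and 5946 counts (237.6 FPKM) in flox/flox. FPKM is fragments per kilobase of a gene length, scaled to library size, as deposited. The log2 ratio of Rpl3l, scKO over flox/flox after TMM scaling, was -0.02 (interval -0.07 to 0.04). Rpl3 (ENSMUSG00000060036, chr15:80077791-80091868, minus strand) encodes the ubiquitous form and was the lowest of the 9 genes by FPKM in both libraries. Rpl3 had 135 counts (2.02 FPKM) in scKO and 136 counts (1.91 FPKM) in flox/flox, with a log2 ratio of 0.04 (interval -0.31 to 0.39). The counting error alone thus leaves room for a difference in Rpl3 from 0.804 to 1.31 times, whereas for Rpl3l it spans 0.952 to 1.02 times.

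The level of Rpl3l per length exceeded that of Rpl3 on every scale tried, by a factor that depended on the length used. By deposited FPKM the ratio of Rpl3l to Rpl3 was 119 in scKO and 124 in flox/flox. The deposited FPKM of Rpl3 implies a length 3.58 times that of its main coding transcript, against 1.24 times for Rpl3l. For Rpl3l that length, 1.699 kb, equals the sum of its distinct annotated exons, 1699 bases, in which overlapping exons count more than once. For Rpl3 it is 4.833 kb, more than the 3175 bases that its annotated exons cover. The deposited FPKM of these genes is thus not a level per kilobase of a single transcript. Per kilobase of main transcript the ratio was 41.3 in scKO and 43.0 in flox/flox. Much of the Rpl3 transcript is repeated elsewhere: 85.6% of its 50-base words and 71.0% of its 150-base words occur in another annotated gene, including 26 pseudogenes, none of which had a row in the count table. Few did in general: of 9940 processed pseudogenes in GENCODE M21, 402 had a row. No 50-base word of Rpl3l occurs in another gene. When counts were divided by only those transcript positions whose 50-base word is found in no other gene, the ratio was 5.96 in scKO and 6.20 in flox/flox. The treatment of reads with several matches is not given in the sources used here. The scales per main transcript and per unshared position therefore cannot be told apart for Rpl3.

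The balance of the pair was close in the libraries on each of these scales. The log2 odds ratio of Rpl3l to Rpl3, scKO over flox/flox, was -0.06 with an interval of -0.42 to 0.30, a value that does not depend on how the libraries are scaled or on transcript length. The sum of both genes was 5804 counts in scKO and 6082 counts in flox/flox, with a log2 ratio of -0.02 (interval -0.07 to 0.04).

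**Figure D1:**
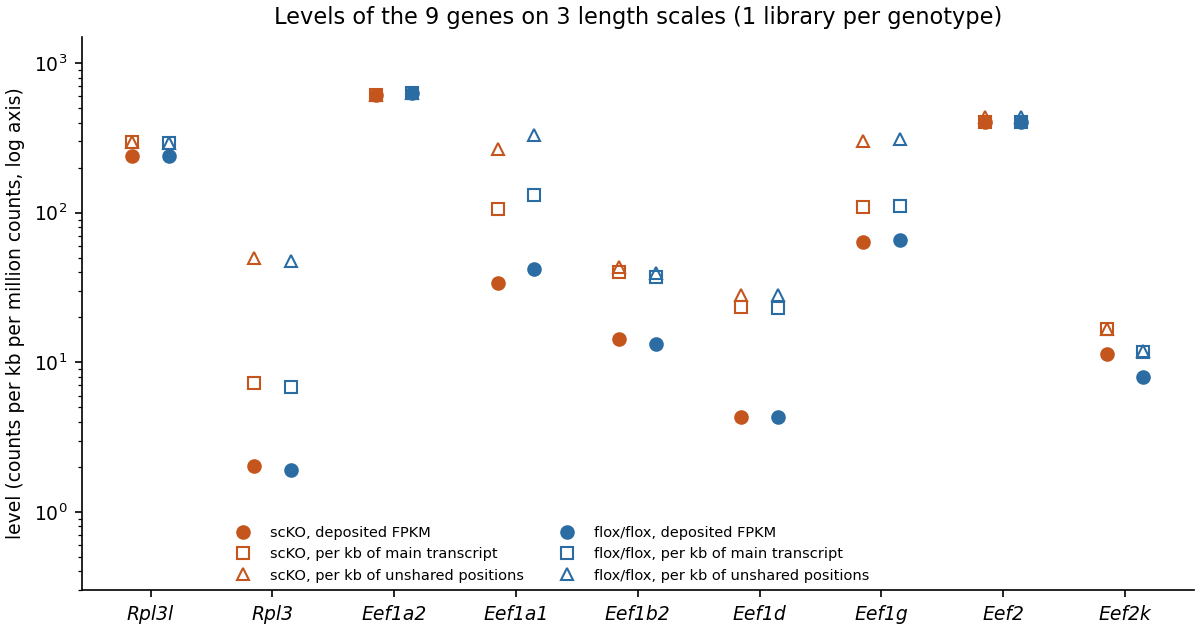
Level of each of the 9 genes in the scKO library (orange, left of each pair) and the flox/flox library (blue), as deposited FPKM (filled), as CPM per kilobase of main transcript (squares) and per kilobase of unshared positions (triangles), on a log axis. Eef1a2 and Eef2 lead on all scales, and the scales differ most for Rpl3, from 2.02 to 49.995 in scKO and from 1.91 to 47.3 in flox/flox.

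Eef1a2 (ENSMUSG00000016349, chr2:181147653-181157014, minus strand) encodes the eEF1A isoform of muscle, heart and neurons and was the highest of the 9 genes by FPKM in both libraries. Eef1a2 had 17591 counts (609.8 FPKM) in scKO and 19345 counts (630.3 FPKM) in flox/flox. Its log2 ratio was -0.09 (interval -0.12 to -0.06), a fold of 0.942. Eef1a1 (ENSMUSG00000037742, chr9:78478449-78489151, minus strand) encodes the isoform of most other tissues. Eef1a1 had 2610 counts (33.7 FPKM) in scKO and 3470 counts (42.1 FPKM) in flox/flox. The log2 ratio of Eef1a1 was -0.36 (interval -0.43 to -0.29), a fold of 0.779 (interval 0.740 to 0.820), and it was the lowest log2 ratio among the 9 genes. Among the 2626 genes with a summed count of 1000 to 10000, 98 genes (3.73%) had a ratio as low or lower.

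Eef1a2 made up the larger part of the eEF1A pair in both libraries, and more so in scKO. Per kilobase of main transcript, the ratio of Eef1a2 to Eef1a1 was 5.80 in scKO and 4.80 in flox/flox, which puts Eef1a2 at 85.3% of the pair in scKO and 82.8% in flox/flox. By deposited FPKM the ratio was 18.1 in scKO and 14.97 in flox/flox, and per kilobase of unshared 50-base positions it was 2.29 in scKO and 1.89 in flox/flox. The length implied by the FPKM of Eef1a1, 5.597 kb, equals its distinct annotated exons summed (5597 bases), against 1794 bases for its main transcript. For Eef1a2 the implied length equals the main transcript, 2084 bases. The log2 odds ratio of Eef1a2 to Eef1a1 was 0.27 (interval 0.19 to 0.35), scKO over flox/flox, so the shift in balance was beyond counting error, with no replicate to set it against. The pair summed to 20201 counts in scKO and 22815 counts in flox/flox, a log2 ratio of -0.12 (interval -0.15 to -0.10). Of the 50-base words of the Eef1a1 transcript, 60.6% occur in another annotated gene, 18 pseudogenes included, and none of those pseudogenes had a row in the table. At 150 bases that share was 10.1%, and for Eef1a2 it was 0 at both word lengths. The fibro-adipogenic progenitor markers, of a cell type in which Eef1a1 is the usual isoform, had a summed log2 ratio of -0.21. Their sums were 12345 counts in scKO and 14803 counts in flox/flox. Intervals lay below 0 for 5 of these 6, against 12.3% of all genes and 17.5% of those with a summed count of 1000 to 10000. The skeletal myofibre list and the slow and oxidative fibre list each also had 5 of 6 below 0, with 1 above. The erythroid list had 5 of 5 below 0. The 6 endothelial markers summed to 3648 counts in scKO and 3257 counts in flox/flox, the opposite direction, with 3 intervals above 0 and 0 below. The part of any of these cell types in the Eef1a1 ratio was not tested.

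The eEF1B complex is built from the subunits that Eef1b2, Eef1d and Eef1g encode. Eef1b2 (ENSMUSG00000025967, chr1:63176825-63180486, plus strand) and Eef1d (ENSMUSG00000055762, chr15:75894205-75909556, minus strand) encode the nucleotide exchange subunits, and Eef1g (ENSMUSG00000071644, chr19:8967041-8978479, plus strand) encodes the subunit that anchors the complex. Eef1b2 had 1086 counts (14.4 FPKM) in scKO and 1069 counts (13.3 FPKM) in flox/flox, with a log2 ratio of 0.07 (interval -0.05 to 0.20). Eef1d had 750 counts (4.34 FPKM) in scKO and 788 counts (4.29 FPKM) in flox/flox, with a log2 ratio of -0.02 (interval -0.17 to 0.13). Both intervals include 0. Eef1g had 2797 counts (64.0 FPKM) in scKO and 3057 counts (65.7 FPKM) in flox/flox, with a log2 ratio of -0.08 (interval -0.15 to -0.0026). The Eef1g interval ended just below 0, and under scaling by total counts it included 0 (log2 ratio -0.04, interval -0.11 to 0.04).

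The subunits stood in a similar order in both libraries. Per kilobase of main transcript, Eef1g was at 108 in scKO and 111 in flox/flox, Eef1b2 at 40.5 in scKO and 37.4 in flox/flox, and Eef1d at 23.4 in scKO and 23.1 in flox/flox (CPM per kilobase). The log2 odds ratio of Eef1g to Eef1b2 was -0.15 (interval -0.30 to -0.0066) and that of Eef1d to Eef1b2 was -0.09 (interval -0.29 to 0.10). Shared sequence touched these genes unequally, since 64.3% of the 50-base words of Eef1g, 17.3% of those of Eef1d and 5.98% of those of Eef1b2 occur in another annotated gene. Eef1d also shares 277 exon bases with Naprt, which had 32 counts in scKO and 44 counts in flox/flox, and Eef1b2 shares 9 exon bases with Ndufs1 on the opposite strand. The strand setting of the counting is not given in the sources used here.

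Eef2 (ENSMUSG00000034994, chr10:81176631-81182498, plus strand) encodes the translocase and was second to Eef1a2 by FPKM. Eef2 had 17217 counts (401.5 FPKM) in scKO and 18355 counts (402.3 FPKM) in flox/flox. Its log2 ratio was -0.04 (interval -0.07 to -0.01), and under scaling by total counts it was -0.0029 (interval -0.03 to 0.03), so its interval lay below 0 under every scaling tried but that by total counts, under which it included 0.

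Eef2k (ENSMUSG00000035064, chr7:120842831-120907450, plus strand) encodes the calcium- and calmodulin-dependent kinase of eEF2, and it had the highest log2 ratio of the 9 genes. Eef2k had 1512 counts (11.3 FPKM) in scKO and 1139 counts (8.01 FPKM) in flox/flox. The log2 ratio was 0.46 (interval 0.35 to 0.57), a fold of 1.38 (interval 1.27 to 1.49). Among the 2626 genes with a summed count of 1000 to 10000, 61 genes (2.32%) had a ratio as high or higher. Little of Eef2k is repeated elsewhere: 1.07% of its 50-base words occur in another gene, and its antisense neighbour Gm15774 had 0 counts in both libraries, under the 3 counts that a count of 0 allows.

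The balance of substrate to kinase was lower in scKO beyond counting error. Per kilobase of main transcript, the ratio of Eef2 to Eef2k was 24.3 in scKO and 34.3 in flox/flox. The log2 odds ratio of Eef2 to Eef2k was -0.50 (interval -0.62 to -0.39). These are RNA levels, and neither the phosphorylation of eEF2 nor the amount of either protein was measured.

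**Figure D2:**
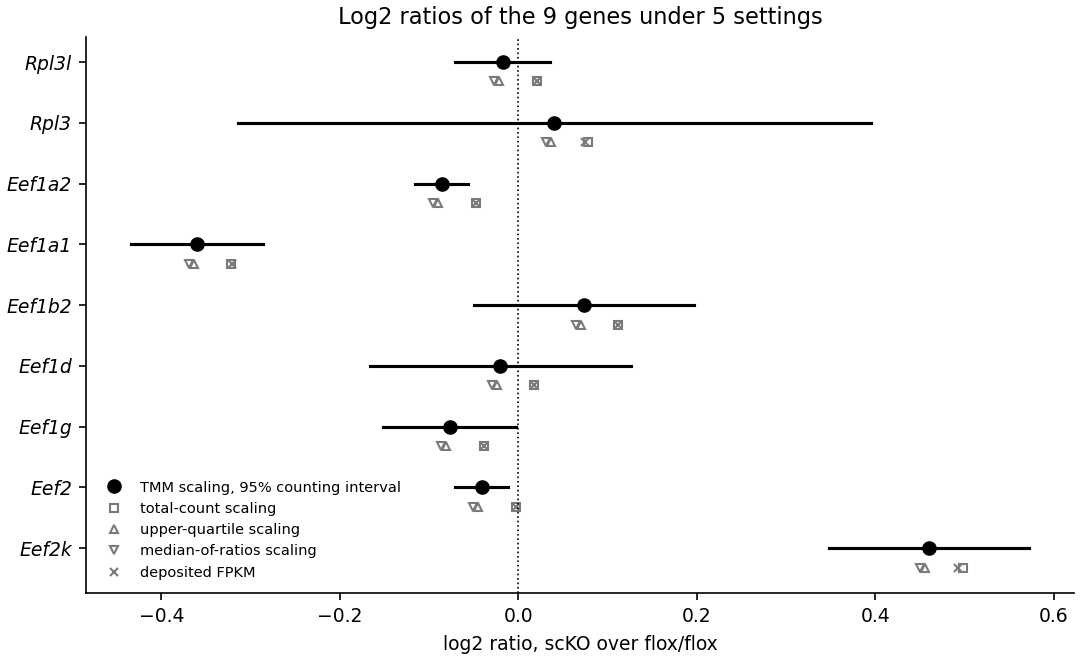
Log2 ratio, scKO over flox/flox, of each of the 9 genes after TMM scaling (filled points, with 95% counting intervals as lines) and under 3 other scalings and by deposited FPKM (open symbols and crosses). Eef2k at 0.46 and Eef1a1 at -0.36 lie apart from 0 under every setting shown, while the filled points of the other 7 genes lie between -0.09 and 0.07.

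The promoters of Eef2 and Eef2k are shown because the Eef2 to Eef2k odds ratio was the farthest from 0 of the pairs described and because CIPC acts on CLOCK, whose complex with BMAL1 binds the E-box CACGTG. The stretches run from 100 bases before to 30 bases after the annotated start, with CACGTG in capitals, as given by RefSeq on GRCm38.p6. The Eef2 window is chr10:81176531-81176660 and the Eef2k window chr7:120842731-120842860, both on the plus strand.
Eef2: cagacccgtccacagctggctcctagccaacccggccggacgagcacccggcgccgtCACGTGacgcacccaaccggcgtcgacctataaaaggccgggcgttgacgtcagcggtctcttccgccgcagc
Eef2k: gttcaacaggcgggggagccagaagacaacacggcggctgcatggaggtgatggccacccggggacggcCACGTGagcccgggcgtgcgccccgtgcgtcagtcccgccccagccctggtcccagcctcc
CACGTG, which reads the same on both strands, lay at -43 to -38 from the start of Eef2 and at -31 to -26 from the Eef2k start shown. The window of another annotated Eef2k start does not hold it. RefSeq windows of 250 bases before to 50 bases after the start were at hand for 6 of the 9 genes, in 9 windows, and these were the only 2 windows with CACGTG. The motif was in 2349 of 32851 such windows over all genes (7.15%). The log2 ratios were -0.04 for Eef2 and 0.46 for Eef2k, and the part of the motif in either was not tested. Motif matches are letters in a window, and binding was not measured. Of the other motifs searched, the E-box CAGCTG was in 4 of the 9 windows, 1 each of Rpl3l, Eef1a2, Eef2 and the other Eef2k start, and in 16.3% of all windows. TATAAA was in 1 of the 9 (Eef2) and 13.6% of all, TATATAA in 1 (Eef1a1) and 3.24% of all, and the MEF2 motif in 1 (a downstream start of Rpl3l) and 3.19% of all. The motifs were picked with the ratios known. No windows were given for Rpl3, Eef1d and Eef1g.

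Set against all genes, the ratios of the 9 genes were moderate. Of 12662 genes with a summed count of at least 20, 3.4% were past 2-fold with an interval off 0, 1.49% higher and 1.91% lower in scKO, and 0 of the 9 genes were in either direction. An interval wholly above 0 was found for 12.8% of all genes and 1 of the 9 (Eef2k). An interval wholly below 0 was found for 12.3% of all genes and 4 of the 9 (Eef1a1, Eef1a2, Eef1g and Eef2), but intervals narrow as counts grow. Among the 2626 genes with a summed count of 1000 to 10000, which include Eef2k, Eef1a1 and Eef1g, 22.2% had an interval above 0 and 17.5% below 0. Above a summed count of 10000, 48.5% of 235 genes had an interval below 0. Eef1a2 and Eef2 belong to that last class, and neither stood at its edge: 75 of the 235 genes (31.9%) had a ratio as low as that of Eef1a2 and 106 (45.1%) as low as that of Eef2. The median log2 ratio of the 9 genes was -0.02, against 0.0021 for all genes tested, whose quartiles were -0.18 and 0.17. Together the 9 genes took 0.357% of the counts in scKO (49367 counts) and 0.362% in flox/flox (53305 counts).

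**Figure D3:**
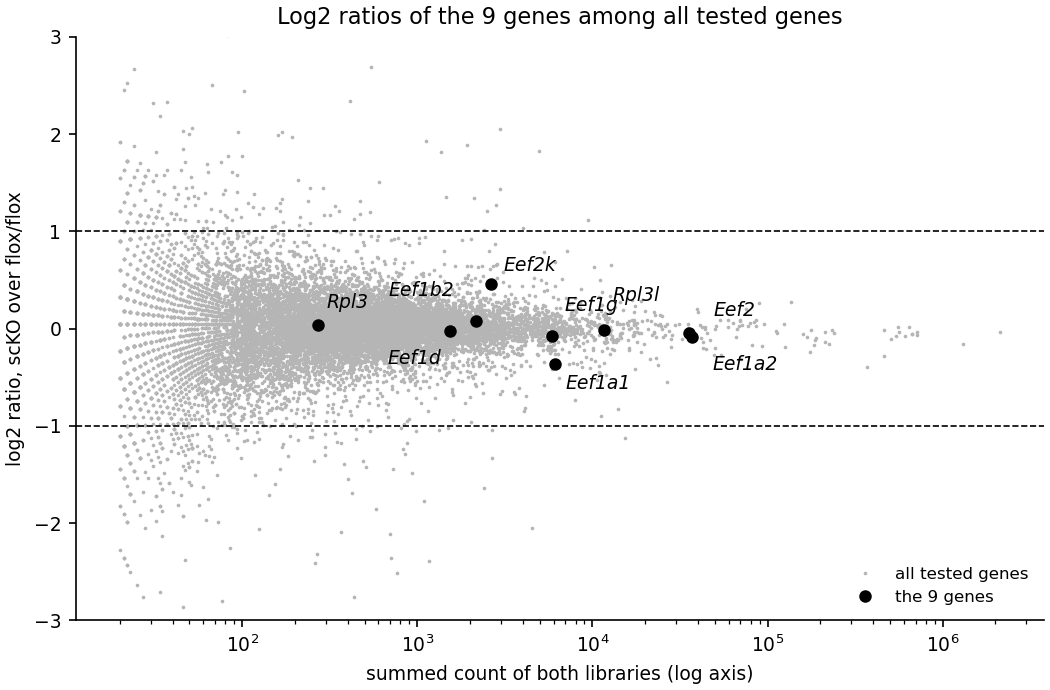
Log2 ratio, scKO over flox/flox, against the summed count of both libraries (log axis) for all 12662 genes tested, with the 9 genes as labelled black points and dashed lines at 2-fold. All 9 lie inside the dashed lines, with Eef2k near the upper edge and Eef1a1 near the lower edge of the cloud at their counts, and 30 genes lie beyond the vertical axis limits.

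The order of the levels was the same in both libraries by FPKM: Eef1a2, Eef2, Rpl3l, Eef1g, Eef1a1, Eef1b2, Eef2k, Eef1d, Rpl3, from high to low. Per kilobase of main transcript, 2 pairs of neighbours changed places. Eef1g (108) was above Eef1a1 (105) in scKO, while Eef1g (111) was below Eef1a1 (131) in flox/flox. Eef1d (23.4 in scKO, 23.1 in flox/flox) stood above Eef2k (16.6 in scKO, 11.8 in flox/flox), the reverse of their order by FPKM, where the length implied for Eef1d is 5.40 times its main transcript. With 1 library per genotype, no spread between samples is known for any of these neighbours.

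Among the other genes of the ribosome, nearly as many had intervals above 0 as below 0. Of 78 other cytosolic ribosomal protein genes, 74 were tested. Of these, 15 (20.3%) had an interval above 0 and 14 (18.9%) below 0, against 12.8% above and 12.3% below among all genes. Among all genes with a summed count of 1000 to 10000, the shares were 22.2% above and 17.5% below. The median log2 ratio of the 74 ribosomal protein genes was 0.01. Rpl27a was the only 1 of the 74 past 2-fold, against 3.4% of all genes tested. It had 23 counts in scKO and 101 counts in flox/flox, a log2 ratio of -2.06 (interval -2.80 to -1.42). Rpl41 (1728 counts in scKO, 1128 in flox/flox, log2 ratio 0.67) and Rpl35a (237 counts in scKO, 162 in flox/flox, 0.60) were higher, and Rps12 (79 counts in scKO, 114 in flox/flox, -0.48) was lower, each with an interval off 0. Per kilobase of main transcript, 1 of these 78 genes stood above Rpl3l in each library, whereas Rpl3 stood above 19 of them in scKO and 20 in flox/flox. The ribosomal protein genes as a group were measured at lower levels where more of their transcript is repeated elsewhere. In the 32 genes with at least 40% of their 150-base words in another gene, the median level per kilobase of main transcript was 15.9 in scKO and 14.1 in flox/flox. In the 23 genes under 10%, it was 100.1 in scKO and 92.9 in flox/flox (CPM per kilobase). Across all 78 genes, which share their libraries and are not independent, Spearman's rho between level and shared share was -0.45 in scKO and -0.44 in flox/flox. Rpl3, with 71.0% shared, falls among the genes with much shared sequence, and Rpl3l, with 0%, among those with little. The log2 ratios had about the same median in both sets, 0.03 and 0.03.

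**Figure D4:**
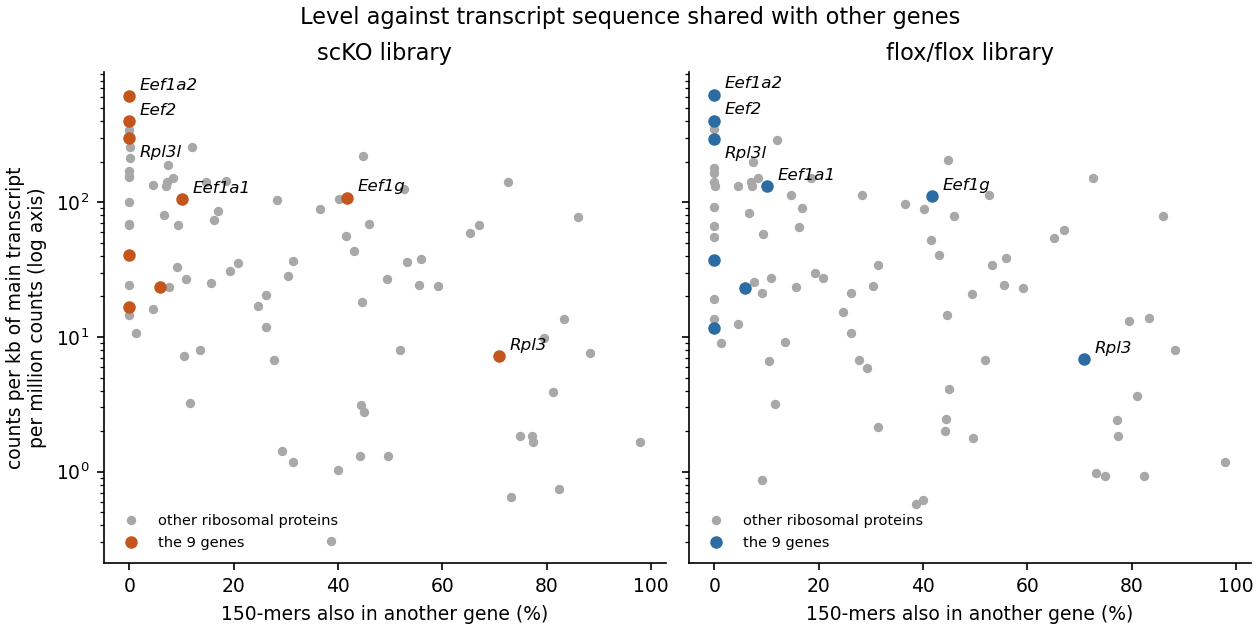
Level in CPM per kilobase of main transcript (log axis) against the percent of 150-base transcript words also found in another annotated gene, for the 9 genes (coloured) and 78 other ribosomal protein genes (grey), in the scKO library (left) and the flox/flox library (right). Rpl3l, Eef1a2 and Eef2 lie at 0% near the top and Rpl3 at 71.0% near 7, and Rps29, at 0 counts in scKO, is not drawn there.

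Of 5 other ribosomal protein paralogs tested from a list of 8, 1 (20%) had an interval above 0 and none below. Among all genes the shares were 12.8% above and 12.3% below. That paralog was Rps27l, with 499 counts in scKO and 439 counts in flox/flox (log2 ratio 0.24). The log2 ratios of Rpl22l1 (0.19), Rpl36al (0.13) and Rpl7l1 (-0.04) had intervals that include 0.

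The other factors that work with the elongation machinery had list medians close to that of all genes. Of 12 other cytosolic elongation, termination and recycling factors tested, Eif5a, which helps the ribosome past proline-rich stretches, had 2925 counts in scKO and 2772 counts in flox/flox (log2 ratio 0.13, interval 0.05 to 0.20). Eef1e1, a scaffold of the tRNA synthetase complex, had 182 counts in scKO and 147 counts in flox/flox (0.36, interval 0.04 to 0.68), and the median of the list was 0.0096. Gtpbp1 (0.07) and Gtpbp2 (-0.12) had intervals that include 0. Of 14 tested enzymes that modify elongation factors or RPL3, 1 (7.14%) had an interval above 0 and none below, against 12.8% above and 12.3% below among all genes. That enzyme was Dph1, which acts in the synthesis of diphthamide on eEF2, with 74 counts in scKO and 51 counts in flox/flox (0.58, interval 0.05 to 1.13), named after its value was seen. The largest ratios at 100 counts or more were 0.15 for Dohh, -0.12 for Eef1akmt1, 0.08 for Dhps and 0.05 for Eef2kmt, all with intervals that include 0.

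Genes that act on eEF2 kinase or on eEF2 phosphorylation were mixed, with a median log2 ratio of -0.02 over 18 genes. Calm3 and Calm2 encode calmodulin, the activator of the kinase. Calm3 had 4283 counts in scKO and 5528 counts in flox/flox (log2 ratio -0.32, interval -0.37 to -0.26), and Calm2 had 2000 counts in scKO and 1909 counts in flox/flox (0.12, interval 0.03 to 0.21). Of the AMP-activated kinase subunits, Prkaa2 (0.09) had an interval above 0 and Prkab2 (-0.07) below 0, both named after their values were seen. Prkab1 (0.34) and Rps6ka1 (-0.24), a kinase that can inhibit eEF2 kinase, had intervals that include 0. The calmodulin genes thus differed in opposite directions beside the higher Eef2k.

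Cytosolic initiation factors had a median of -0.0060 over 41 genes, and the mitochondrial translation factors, which include elongation, initiation, release and recycling factors, had a median of 0.10 over 10 genes. Of the initiation factors, 9 (22.0%) had an interval above 0 and 4 (9.76%) below 0, against 12.8% above and 12.3% below among all genes, and 22.2% above and 17.5% below among all genes with a summed count of 1000 to 10000. Eif4h, a partner of the helicase eIF4A, had 1404 counts in scKO and 934 counts in flox/flox (log2 ratio 0.64, interval 0.52 to 0.76). Eif1 (0.31) and Eif4g1 (0.23) were also higher, and Eif4e, the cap-binding factor, had 1223 counts in scKO and 1495 counts in flox/flox (-0.24, interval -0.35 to -0.13). Tufm, the mitochondrial counterpart of eEF1A, had 668 counts in scKO and 814 counts in flox/flox (-0.23, interval -0.38 to -0.08). Of the 50-base words of Tufm, 74.0% occur in a pseudogene that had 412 counts in scKO and 428 counts in flox/flox. How reads were divided between these rows is not known. Tsfm, which encodes the exchange factor of the Tufm protein, had 165 counts in scKO and 115 counts in flox/flox (0.57, interval 0.22 to 0.93). Guf1 (0.36) and Gfm1 (0.10) had intervals above 0 (Gfm1 was named after its value was seen), and Mtrf1l (0.27) had an interval that includes 0. Of the 10 mitochondrial factors, 3 (30%) thus had an interval above 0 and 1 (10%) below 0. No gene of either list was past 2-fold, against 3.4% of all genes tested and 1.29% of those with a summed count of at least 100.

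**Figure D5:**
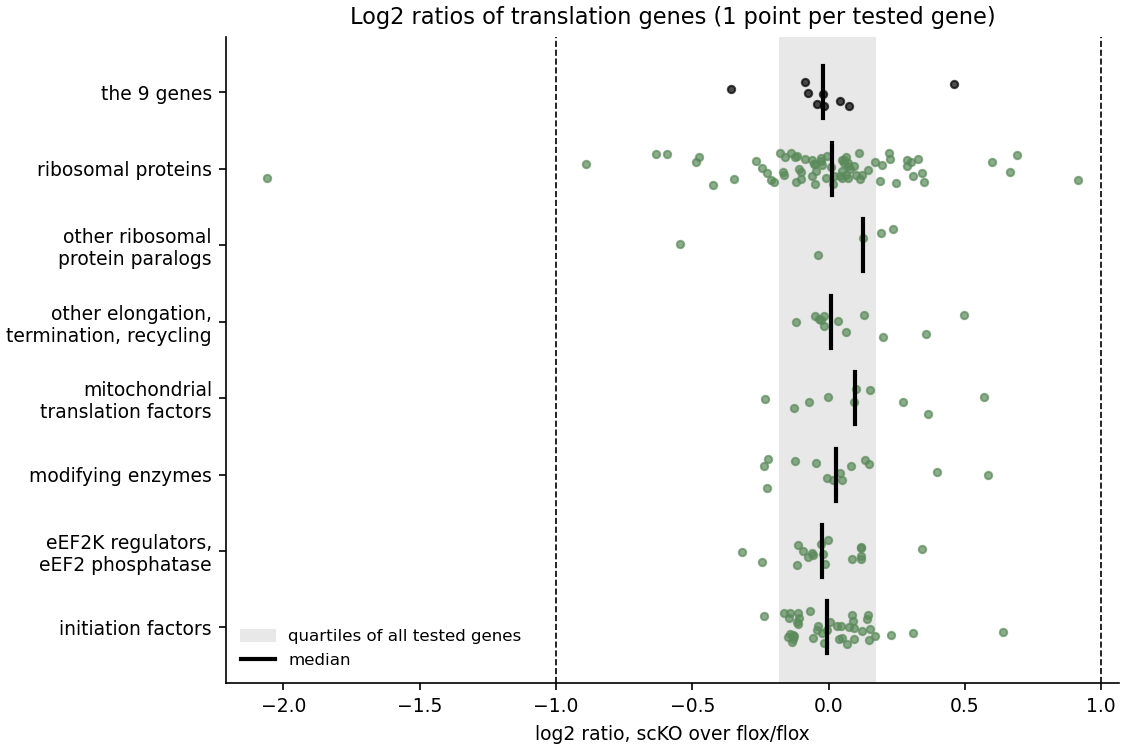
Log2 ratio, scKO over flox/flox, of each tested gene of 7 lists of translation genes and of the 9 genes described here (points), with the median of each list as a bar, dashed lines at 2-fold and the quartiles of all 12662 genes tested as a shaded band. The medians of all lists lie between -0.02 and 0.13, and the 9 genes between -0.36 and 0.46.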

How the data were processed

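Whole-number counts per gene and FPKM values for 34745 Ensembl genes in 2 libraries were deposited by the authors, per the file headers as 1 column per library. The submitters' processing notes name CASAVA, HISAT2 2.0.4, StringTie 1.3.0 and the build GRCm38, with no role or order. The annotation, the counter, the strand setting, the read length and the treatment of reads with several matches are not given in the sources used here. A reference table named 34267 of the identifiers. Positions, transcripts and shared words came from GENCODE M21 on GRCm38, and promoters from RefSeq on GRCm38.p6. The main transcript of a gene was its protein-coding transcript with the best principal-isoform rank (APPRIS), and the longest where ranks tied. It can be much longer than its coding sequence (1939 against 675 bases for Eef1b2), and levels per kilobase of main transcript depend on this choice.

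Counts were scaled with TMM in edgeR 4.0.16 (R 4.3.3), with factors of 1.01 for scKO and 0.987 for flox/flox. Genes with a summed count of at least 20 (12662 genes) were compared as log2 ratios with a prior count of 0.5. Intervals are exact conditional binomial 95% intervals (Clopper-Pearson) and cover counting error only, since reads without molecular identifiers are not independent molecules. A count of 1 is 0.0722 CPM in scKO and 0.0679 CPM in flox/flox. A gene past 2-fold had a ratio of 2 or more, or of 0.5 or less, with an interval clear of 1. With 1 library per genotype no test, dispersion or p-value was computed. The interval code was tested on simulated data. SciPy 1.17.1 and Biopython 1.88 were used for intervals and alignments.

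Named genes are the 9 members, Cipc, and from each of 7 lists of translation genes up to 4 genes with the largest absolute log2 ratio among those that reach 100 counts in either library, plus every gene past 2-fold. Exceptions are marked where they occur. The members, the lists, 11 lists of cell type markers and the promoter motifs (5 searched, on both strands) were chosen with earlier results of these data known. Other scalings, count minimums, prior counts and length scales were tried as alternatives.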

Additional observations from a re-analysis of the deposited data

How the results depend on the processing

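Of 122 combinations of a result and an alternative setting, 108 gave a value inside the counting interval of the reported value (for list medians, inside the median's interval or the list's range, and for gene counts, within 1.5 times). The other 14 were counted as moved. They include the paralog level ratios on other length scales, which have no counting interval. No value whose interval was off 0 took the opposite sign. Scaling by total counts raised the median log2 ratio of all genes by 0.04 and took 2 members outside their intervals: Eef1a2 was at -0.048, with an interval still below 0, and Eef2 at -0.0029, with an interval that includes 0, and the same values, -0.048 and -0.0029, came from deposited FPKM. Under total counts the Eef1g interval came to include 0 (log2 ratio -0.04), and the medians of the initiation factors (0.03) and the eEF2 kinase regulators (0.01) turned positive. The median of the other elongation, termination and recycling factors turned to -0.02 with no filter and with a summed count of at least 100. Rpl3l and Eef1d took a positive sign (0.02 each) under total counts and by FPKM, with intervals that include 0 under every scaling. Eef2k ranged from 0.45 to 0.50 and Eef1a1 from -0.37 to -0.32. The number of genes past 2-fold was 431 of 12662 (3.4%), against 647 of 17286 genes (3.74%) with no filter. It was 126 of 9797 genes (1.29%) with a summed count of at least 100, so the share as well as the number was lower there. A prior count of 5 gave 317 of 12662 (2.5%). The length scales were added after the data were seen. Relative to FPKM ratios of 119 in scKO and 124 in flox/flox, Rpl3l over Rpl3 was 41.3 in scKO and 43.0 in flox/flox per kilobase of main transcript, and 5.96 in scKO and 6.20 in flox/flox per kilobase of unshared positions. Relative to 18.1 in scKO and 14.97 in flox/flox, Eef1a2 over Eef1a1 was 5.80 in scKO and 4.80 in flox/flox, and 2.29 in scKO and 1.89 in flox/flox on those scales. Adding pseudogene rows could be done for Eef1b2 (0.06) and Eef2k (0.46), and gave no value for Rpl3 and Eef1a1, whose pseudogenes have no rows. No paired analysis was possible because each genotype had 1 library, and for the same reason no library could be left out. Depth limits Rpl3 the most, with 135 counts in scKO and 136 in flox/flox.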
